A study of Drosophila melanogaster with 8 samples.

Results

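The difference between Hr39(04443) mutant and wild-type females, averaged over the spermathecae and the lower reproductive tract, was measured on all 8 of the 8 arrays of the study. Arrays were chosen by their labels, 4 labelled Hr39(04443) and 4 labelled wild type, and each genotype was measured on 2 arrays per organ. All RNA came from mated females of Drosophila melanogaster, the fruit fly, that were 4 days old. The spermathecae are paired glands that store sperm, and the lower reproductive tract was dissected with the spermathecae removed. The mutant groups carry the allele 04443 of Hr39, and the labels do not give its zygosity. The wild-type strain is unnamed in the labels, so the effect of the mutation and any difference in strain background fall on the same 4 arrays and cannot be told apart. The 2 arrays of a group are labelled as an original and a duplicate with no statement of separate dissections. Their spread may therefore be technical. P-values within an organ, or for an organ difference in the genotype effect, cover only this spread. P-values of the averaged difference cover it together with the disagreement between the organs. Levels are array signals on a linear scale made with MAS5, differences are mutant minus wild type in log2(signal + 4) with a standard error (SE), and a call is an adjusted p below 0.05 in limma.

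Hr39 encodes a nuclear hormone receptor, a protein that binds DNA and switches genes on or off. Its closest relatives are fly ftz-f1 and the mammalian receptors SF-1 and LRH-1, which act in steroid and reproductive tissues. In the female fly Hr39 is known to be needed to form the spermathecae and parovaria, the secretory glands of the tract, and a line kept for a mutation can differ from a wild-type strain at many loci unlinked to it.

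Hr39 itself came first, as a check of the labels. Probe set 1631402_s_at read 517 and 570 in wild-type spermathecae, 382 and 347 in mutant spermathecae, 79.4 and 87.3 in wild-type lower tract and 50.6 and 56.7 in mutant lower tract. Every mutant array lay below both wild-type arrays of its organ, and transcript was present on all of them. Over both organs the signal was 1.50-fold lower in the mutant, a log2 difference of -0.58 (SE 0.123, adjusted p = 0.0235). On probe set 1630002_s_at the wild-type spermathecae read 821 and 725 against 477 and 452 in the mutant, and the lower tract 73.3 and 88.2 against 59.6 and 65.5. Its groups did not overlap either, with a difference of -0.54 (SE 0.138, adjusted p = 0.0515) that missed the threshold. It passed with the group means averaged (0.0223), a robust variance (0.0465), the stricter filter (0.0344) or wild-type lower tract replicate 1 dropped (0.0306). The remaining probe sets gave -0.88 (1632845_at, adjusted p = 0.188, and 0.0254 without a variance trend) and -0.05 (1628556_s_at, adjusted p = 0.907), so 4 of 4 were lower in sign and 1 of 4 passed the test. Dropping mutant lower tract replicate 1 or 2 moved the adjusted p of probe set 1631402_s_at to 0.0784 or 0.0557, dropping mutant spermathecae replicate 1 or 2 to 0.0607 or 0.0862, dropping wild-type replicate 2 of the lower tract or spermathecae to 0.0627 or 0.0634, and quantile normalization to 0.0568, each without a call. The paralog ftz-f1 gave -0.18 (adjusted p = 0.622) and 0.20 (adjusted p = 0.752) on its 2 probe sets, without a call.

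The 04443 allele is known as an insertion of a P element, a transposon, of a kind that carries rosy (ry), the xanthine dehydrogenase gene, as its marker. The ry probe set read 55.3 and 25.3 in wild-type spermathecae against 278 and 230.5 in mutant spermathecae, but 158 and 132 against 143 and 114 in the lower tract. The genotypes were separated in the spermathecae and overlapped in the lower tract, with differences of 2.62 (SE 0.316, adjusted p = 0.000803) and -0.17 (adjusted p = 0.867) and an adjusted p of 0.00929 for the interaction, which tests the organ difference itself. Averaged over both organs the difference was 1.23 (adjusted p = 0.192) and was not called, while averaging the group means called it (0.00671). The eye colour gene cn was too dim to be tested, with signals from 0.38 to 10.9.

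Across the 8 arrays 10113 probe sets could be tested, and 601 of them (5.94%) differed between the genotypes over both organs. Of these 319 (3.15%) rose in the mutant and 282 (2.79%) fell, and the median difference of all tested probe sets was -0.00 (median SE 0.195). The calls with a single gene symbol covered 512 of 7827 tested genes. The fitted difference was at least 2-fold for 143 of the rises and 154 of the falls, and at least 8-fold for 16 and 19. All 601 had the same sign in both organs, which a fit with 1 shared difference favours by construction. Mutant and wild-type arrays did not overlap in either organ for 315 of the 319 rises and 278 of the 282 falls. Of all tested probe sets 1940 (19.2%) met this. A call on the same 8 arrays favours such separation by construction, so these counts add no support to the calls. Removing 1 array left 311 to 515 calls: 326 and 345 without mutant lower tract replicates 1 and 2, and 346 and 311 without mutant spermathecae replicates 1 and 2.

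RNA quality and tissue content were read from control probe sets and marker genes. The 3′ to 5′ signal ratio of Act5C was 24.9 on wild-type spermathecae replicate 1 and 3.56 to 4.80 on the others. Germline markers (osk, vas and CycB) summed to 2636 on wild-type lower tract replicate 1 and to 157 on replicate 2, 45.3 and 254.7 in the mutant lower tract, and 24.4 to 50.5 in the spermathecae. Spermathecal markers such as the proteases Send1 and Send2 summed to 54518 to 76197 in spermathecae of either genotype and to 207.6 to 3214 in lower tract, so both organs carried their labelled identity. Apart from Hr39, none of the tested markers of spermathecae, germline, fat body, hemocytes or neurons was called, nor the 1 tested marker each of muscle (Tm2), eggshell, gut and mating; longer lists of muscle, fat body, hemocyte and neuronal genes did hold calls. Without replicate 1 of both wild-type groups 345 probe sets were called, 191 higher and 154 lower. In whole organs fewer cells of a type and less RNA per cell cannot be told apart.

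The 12 largest rises included genes near background in wild type and genes above the array median there in 1 or both organs. Cyp6a17, a cytochrome P450 of the detoxification family that is absent from the genome of some natural strains, read 8.14, 0.519, 9.78 and 5.99 on the 4 wild-type arrays. In the mutant it read 368 and 377 in spermathecae and 1454 and 1417 in lower tract. The groups were far apart in both organs, with a fitted difference of 6.30 (SE 0.345, adjusted p = 1e-05), or 79.0-fold. beat-VII, an immunoglobulin-domain relative of the axon guidance protein beaten path, read 1.14 to 2.41 on the wild-type arrays, 276 and 253 in mutant spermathecae and 325 and 174 in mutant lower tract. No wild-type array came near a mutant array, the difference was 5.47 (SE 0.248, adjusted p = 3.86e-06), and a second beat-VII probe set gave 4.84. CG11892 read 0.853 and 14.0 in wild-type against 1039 and 1016 in mutant spermathecae, and 141 and 209 against 4238 and 3946 in lower tract. It was high in the wild-type lower tract as well, so its rise of 5.66 (SE 0.489, adjusted p = 0.000188) was a difference of level between expressed states there. tobi, an alpha-glucosidase known as a target of brain insulin signalling, rose by 4.22 (SE 0.328, adjusted p = 8.89e-05), from 2.25 to 15.4 on wild-type arrays to 174 to 311 on mutant arrays.

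path rose from a level above the array median. This gene, an amino acid transporter known for its part in growth, read 58.6 and 59.3 in wild-type and 541 and 376 in mutant spermathecae, and 70.4 and 119 against 798 and 860 in lower tract. The rise was similar in both organs, 2.85 and 3.12, and 2.99 (SE 0.186, adjusted p = 2.13e-05) over both. Kmn1, a kinetochore subunit, rose by 3.07 and CG13794 by 3.07. Among the 12 largest rises were further CG3397 (3.88), CG18088 (3.24), CG13742 (3.21), the odorant-binding protein gene Obp99b (3.16) and Cyp4d21 (3.04), a P450 first found as sex-specific enzyme 1. By the interaction, the differences of Kmn1, CG13794, CG18088 and Cyp4d21 depended on the organ. Obp99b was uneven within the mutant lower tract, at 35.2 and 332, and lost its call without mutant lower tract replicate 2 (adjusted p = 0.0514) or mutant spermathecae replicate 2 (0.0734).

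The 12 largest falls included enzymes, a transporter and a secreted lipid carrier. teq, a serine protease related to mammalian neurotrypsin, read 253, 150, 477 and 462 on the wild-type arrays and 15.8, 6.09, 10.1 and 5.95 on the mutant arrays on probe set 1624957_a_at. The groups did not overlap and the fall was -4.57 (SE 0.357, adjusted p = 9.02e-05), while its other tested probe set gave 0.62 (adjusted p = 0.565). Sodh2, a sorbitol dehydrogenase, read 379 to 418 on the wild-type arrays and 16.6 to 40.7 on the mutant arrays, with nearly the same wild-type level in both organs. It fell by 3.70 on the log2 scale (SE 0.198, adjusted p = 9.22e-06). Zip102B, of the zinc transporter family, read 497 and 500 in wild-type spermathecae and 253 and 313 in wild-type lower tract against 27.6 to 34.4 in all mutant arrays, a difference of -3.44 (SE 0.177, adjusted p = 9.22e-06). The mutant levels of the organs were similar although their wild-type levels differed. GstE1, a glutathione transferase, fell from 2059 and 1730 to 98.6 and 97.8 in spermathecae and from 507 and 538 to 80.0 and 89.9 in lower tract, -3.39 over both (SE 0.287, adjusted p = 0.000166). Also among the 12 largest falls were Cyp4p2 (-4.05), Rnf11 (-3.68), lncRNA:CR32027 (-3.55), CG14456 (-3.49), CG13215 (-3.03), cas (-3.02), NLaz and Elovl7. The gene cas encodes the zinc-finger factor castor. By the interaction, the differences of NLaz, Elovl7, Rnf11 and GstE1 depended on the organ.

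**Figure D1:**
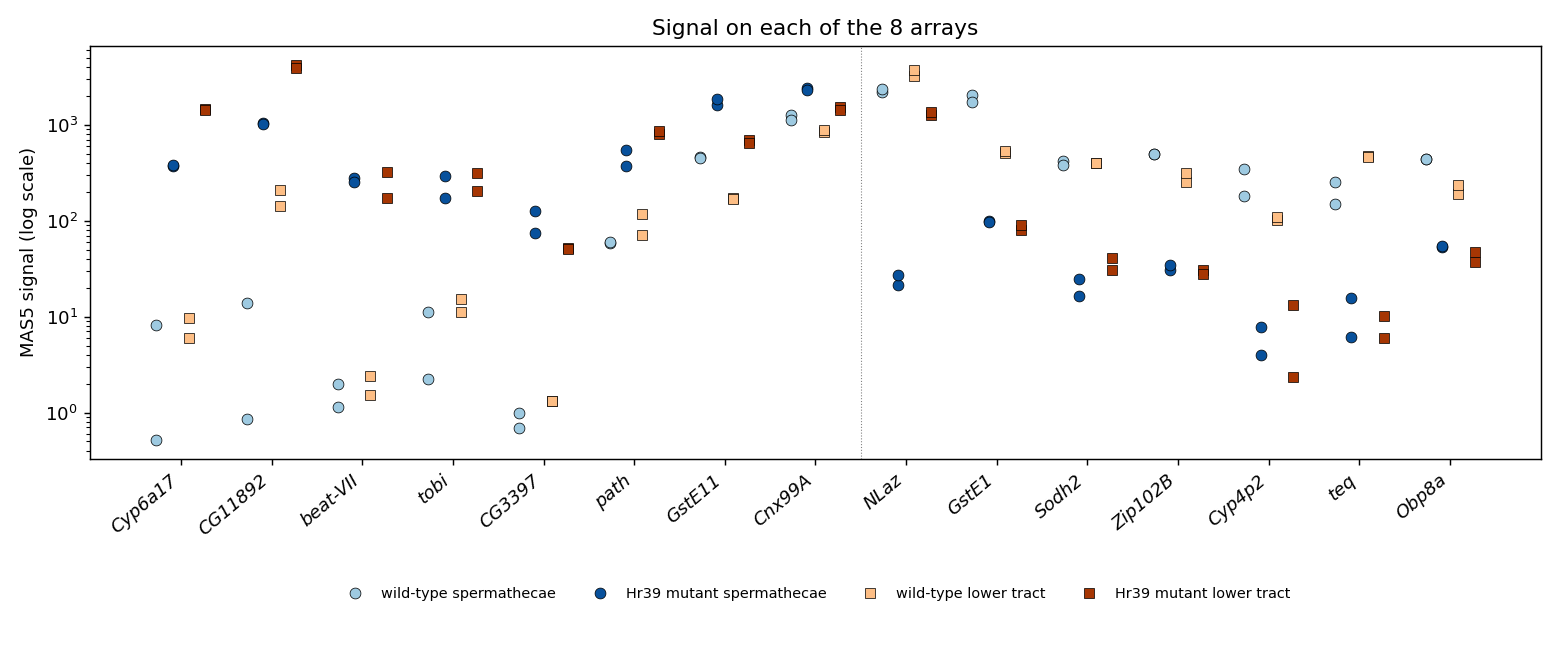
MAS5 signal (log axis) of 15 genes on each of the 8 arrays, with circles for spermathecae and squares for lower tract, pale for wild type and dark for the Hr39 mutant; genes left of the dotted line were higher and those right of it lower in the mutant. Cyp6a17 lies between 0.519 and 9.78 on the wild-type arrays and between 368 and 1454 on the mutant arrays, while NLaz is far lower in mutant spermathecae than in mutant lower tract.

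The fitted size of a difference rests on the pseudocount of 4 where a genotype is at background, and no detection calls were used. Without a pseudocount Cyp6a17 gave 7.53 and with a pseudocount of 20 it gave 4.87, beat-VII gave 7.21 and 3.64, CG3397 6.08 and 2.12, and cas -4.58 and -1.67. The sign and call of these genes were the same in each of these fits. A stricter pattern was counted directly: at or above the array median on all 4 arrays of a genotype and below the 25th percentile (4.64 to 5.99) on all 4 of the other. It held for 5 probe sets, all of them called. beat-VII, CG3397 and 18SrRNA-Psi:CR41602, a ribosomal RNA pseudogene whose probes can be shared with other copies, were seen in the mutant. CG13215 and an unnamed probe set, 1629242_x_at, were seen in wild type, the last at 316, 241, 93.3 and 137 in wild type and 1.92 to 4.48 in the mutant. With the 40th percentile in place of the 25th the count was 9, of which 5 were seen in the mutant.

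Differences that were large in both organs were counted next, to separate them from averages carried by 1 organ. A difference of at least 2-fold in each organ, of the same sign and without overlap, was found for 210 probe sets (2.08%), and 184 of these were among the 601 calls (1.82% of all tested), 97 higher and 87 lower. They covered 152 named genes. The sizes in the 2 organs were within 2-fold of each other for 117 of the 184, with a median gap of 0.682, and the spermathecae had the larger difference in 107. GstE11, a glutathione transferase, is an example of equal size, with 460 and 453 against 1608 and 1860 in spermathecae and 173 and 168 against 697 and 650 in lower tract. Its wild-type and mutant arrays were well separated, the difference was 1.91 in spermathecae and 1.96 in lower tract, and over both it was 1.93 (SE 0.103, adjusted p = 9.22e-06). The count of 184 was 116 with a pseudocount of 20.

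The differences within each organ share no array and could be set against each other. Their tests share 1 spread per probe set, taken from all 8 arrays, so calls in both organs are not independent agreement. In the spermathecae 802 probe sets (7.93%) were called, 409 higher (4.04%) and 393 lower (3.89%), and in the lower tract 587 (5.80%), 250 higher (2.47%) and 337 lower (3.33%). In each organ with the same direction 196 (1.94%) were called, which is 24.4% of the spermathecae calls and 33.4% of the lower-tract calls. All 196 were among the 601, with 95 higher and 101 lower. A further 186 of the 601 were called in the spermathecae but not in the lower tract, 94 in the lower tract but not in the spermathecae, and 125 in neither organ alone. The count in spermathecae was 413 and 313 when mutant replicates 1 and 2 were dropped and 534 without wild-type replicate 1. That in lower tract was 178 and 233 when mutant replicates 1 and 2 were dropped and 333 without wild-type replicate 1.

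Whether the genotype difference itself depended on the organ was tested by the interaction, which was called for 308 probe sets (3.05%). The larger difference lay in the spermathecae for 161 and in the lower tract for 147, and the signs were opposite in 207. Of the 308, 40 were among the 601 averaged calls, 30 of them larger in the spermathecae, and 268 were not called over both organs. Over all tested probe sets 5.94% had an averaged call, a smaller share than 40 of 308, and the overlap was not tested. The fit with 1 shared difference counts an organ difference as spread, which works against an averaged call. For NLaz the SE was 0.797 over both organs and 0.159 within each organ. NLaz, a lipocalin related to apolipoprotein D that carries lipids and acts in stress resistance, read 2196 and 2365 in wild-type and 21.3 and 27.5 in mutant spermathecae. In the lower tract it read 3253 and 3744 against 1274 and 1365, so it fell in both organs without overlap but by unequal amounts, -6.34 and -1.40 (interaction adjusted p = 1.29e-05). Its averaged difference of -3.87 (SE 0.797, adjusted p = 0.0217) was not called without any 1 array of the spermathecae, with adjusted p = 0.0593 and 0.0748 without mutant replicates 1 and 2 and 0.0646 and 0.0565 without wild-type replicates 1 and 2, nor without a variance trend (0.0569) or with a robust variance (0.0918). The interaction count was 116 and 139 without mutant lower tract replicates 1 and 2, 171 without either mutant spermathecae array and 190 without wild-type lower tract replicate 1.

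Other organ-dependent members of the averaged calls went both ways. Cyp4d21 rose from 204 and 224 to 5626 and 5745 in lower tract, where its difference was 4.71, and from 1.36 and 5.05 to 15.1 and 12.8 in spermathecae, where it was 1.36. CG18088 rose from 50.1 and 63.1 to 2093 and 2693 in spermathecae and was at 12.3 or below on all lower-tract arrays. Elovl7, named as a fatty acid elongase, fell from 454 and 492 to 11.5 and 11.1 in lower tract (-4.96), and its difference in spermathecae of -1.20 was not called. The averaged call of CG18088 (adjusted p = 0.028) did not survive dropping either mutant (0.0858 and 0.0942 for replicates 1 and 2) or either wild-type (0.0745 and 0.072) spermathecae array, or mutant lower tract replicate 1 (0.0586), and was absent in 3 other alternatives (no variance trend, robust variance and a pseudocount of 20, 0.0657 to 0.0683). That of Elovl7 (adjusted p = 0.0287) did not survive dropping either mutant (0.0857 and 0.0858) or either wild-type (0.0762 and 0.0811) lower-tract array, or mutant spermathecae replicate 1 (0.0657), nor the fits without a variance trend (0.0645) or with a robust variance (0.0509).

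**Figure D2:**
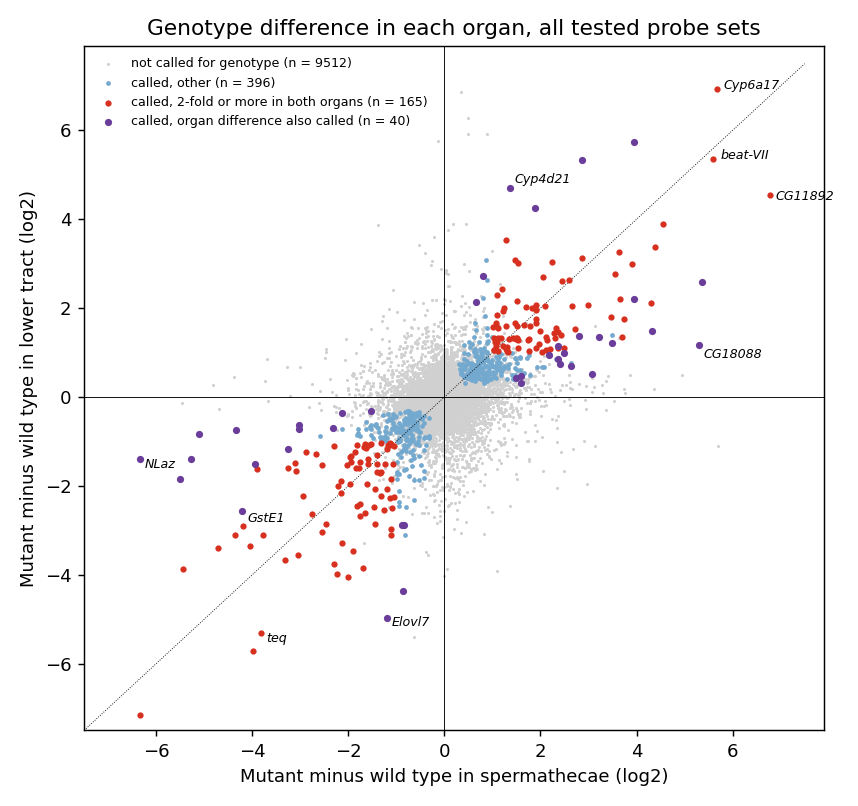
Mutant minus wild-type log2 difference of each of the 10113 tested probe sets in spermathecae (horizontal axis) and lower tract (vertical axis); the dotted line marks equal differences. Red points are the 165 calls of at least 2-fold in both organs without an organ difference, purple points the 40 calls with an organ difference, blue points the other 396 calls and grey points the rest; called points lie in the quadrants of equal sign.

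An average over organs hides genes that move in opposite directions, and 19 probe sets were called in each organ with opposite signs. None of them was called over both organs by limma, and 0 reached an unadjusted p below 0.05 there. Opposite effects cancel in the average and count as spread in its fit, so this outcome was favoured by construction. Elal read 152 and 163 in wild-type and 967 and 845 in mutant spermathecae, and 619 and 598 against 212 and 167 in lower tract. Each organ was separated by genotype, at 2.49 (adjusted p = 1.8e-05) and -1.67 (adjusted p = 0.00038), and the average of 0.41 (adjusted p = 0.783) described neither. Hex-C, a hexokinase, gave 1.50 and -1.35, Npc2h, of the sterol-binding NPC2 family, 1.13 and -1.42, and Lsd-1, a lipid droplet coat protein, 0.75 and -0.96. CG13813 gave 2.97 and -1.97. CG13285 went the other way, -1.37 in spermathecae and 3.88 in lower tract.

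Genes with an organ-dependent difference but no averaged call included GlcAT-P, a glucuronyltransferase, and Obp69a, an odorant-binding protein gene. GlcAT-P read 1248 and 1626 in wild-type and 41.7 and 52.1 in mutant spermathecae, and 24.3 to 32.1 on all lower-tract arrays. Obp69a read 1663 and 2017 in wild-type and 29.9 and 51.4 in mutant lower tract, and 104 to 183 in spermathecae. The falls of -4.82 (adjusted p = 3.67e-06) and -5.41 (adjusted p = 5.68e-06) each lay in 1 organ, and the averages of -2.28 (adjusted p = 0.147) and -3.02 (adjusted p = 0.0529) missed the threshold. With the group means averaged both were called (2.42e-05 and 5.62e-06), and Obp69a was also called with the stricter filter (0.0485) and without wild-type spermathecae replicate 2 (0.0415).

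Called genes were also described by where wild-type flies express them, since Hr39 signal is higher in spermathecae than in lower tract. Of all tested probe sets 22.2% were called as higher in the spermathecae of wild type than in its lower tract, and 21.5% the reverse. The shares were 32.6% and 32.3% among the 319 rises and 30.5% and 30.9% among the 282 falls, so neither organ predominated. Among the 147 interaction calls larger in the lower tract, 14.3% were higher in wild-type spermathecae and 63.9% in wild-type lower tract, and among the 161 larger in the spermathecae 35.4% and 38.5%. Wild-type arrays enter both the organ and the genotype difference, so these shares are descriptions without a test.

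By function, cytochromes P450, enzymes that oxidise toxins, steroids and lipids, held the largest share of calls among the lists with at least 10 tested members. Of 62 tested P450 probe sets 9 rose and 8 fell (27.4%), with a median difference of 0.07, against 5.94% called and a median of -0.00 over all tested. Besides Cyp6a17 and Cyp4d21 the rises included Cyp6w1 (1.66), Cyp12c1 (1.41), Cyp305a1 (1.39) and Cyp12a5 (1.17). The falls included Cyp4p2 (-4.05), Cyp4p1 (-2.79), Cyp6a14 (-2.72), Cyp6a2 (-1.52) and Cyp6a23 (-1.48). Cyp6a14 depended on the organ, at -3.94 in spermathecae and -1.50 in lower tract (interaction adjusted p = 0.000603), as did Cyp6w1, at 2.63 and 0.69 (0.0045). The count of 17 fell to 14 when replicate 1 of either wild-type group was dropped and to 12 when both were. Cyp4p1 is a plain case, at 110 and 124 against 19.0 and 14.6 in spermathecae and 159 and 199 against 17.6 and 19.0 in lower tract, with no overlap (adjusted p = 4.64e-05).

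Neighbouring P450 genes did not all move in the same direction. In the Cyp6a cluster on chromosome arm 2R, Cyp6a17 rose by 6.30 while its adjacent paralogs gave 0.58 (Cyp6a22, adjusted p = 0.266) and -1.48 (Cyp6a23, adjusted p = 0.000947). Further along, Cyp6a19 gave -0.71 (adjusted p = 0.387), Cyp6a9 -0.72 (adjusted p = 0.101) and Cyp6a20 0.96 (adjusted p = 0.0552). Next to Cyp6a20, Cyp6a21 fell by 0.98 on the log2 scale (adjusted p = 0.0159). Cyp6a17 and Cyp6a23 are close relatives, and shared hybridisation between their probe sets was not tested. In the Cyp4p cluster Cyp4p2 and Cyp4p1 both fell, and Cyp4p3 gave -0.42 (adjusted p = 0.221).

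Calls in other detoxification families were small in number and their shares lay above the 5.94% over all tested probe sets. Of 31 glutathione transferase probe sets (9.68% called) GstE11 and GstO1 rose and GstE1 fell, the call of GstO1 holding in 11 of 18 alternatives (adjusted p up to 0.0902). Of 18 UDP-glycosyltransferases (11.1%) Ugt50B3 rose by 1.86 (adjusted p = 0.000586) and Ugt35C1 fell by 2.78 on the log2 scale (adjusted p = 0.00693). Of 11 esterases (18.2%) alpha-Est7 rose by 1.91 (adjusted p = 0.00213) and alpha-Est5 by 2.90 (adjusted p = 0.0142), the latter from 14.6 and 5.47 to 293 and 234 in spermathecae and from 0.670 and 2.32 to 11.3 and 11.0 in lower tract. The alpha-Est5 call needed both mutant spermathecae arrays (adjusted p = 0.0536 and 0.0619 with replicate 1 and then 2 dropped). None of 13 tested antioxidant enzyme probe sets was called by limma (2 at an unadjusted p below 0.05).

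**Figure D3:**
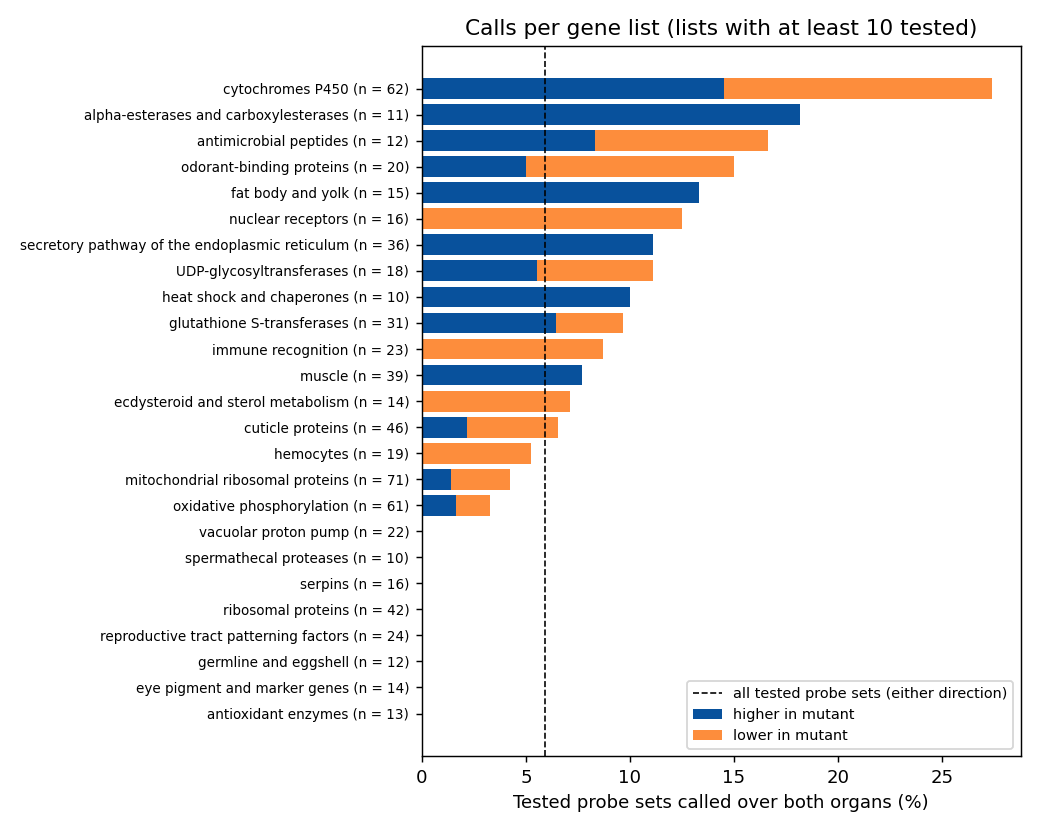
Share of tested probe sets called over both organs (horizontal axis, percent) for each gene list with at least 10 tested, blue for higher and orange for lower in the mutant; the dashed line is the share over all tested probe sets, 5.94%. Cytochromes P450 stand at 27.4%, and 8 of the lists shown have no call.

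Genes of the endoplasmic reticulum, where secreted proteins are folded and loaded into vesicles, were called in 1 direction only. Of 36 tested, 4 were called, all higher (11.1%, against 5.94% over all tested probe sets), and the median of the list was 0.27. Cnx99A, the membrane chaperone calnexin, read 1276 and 1131 in wild-type and 2438 and 2286 in mutant spermathecae, and 848 and 886 against 1530 and 1423 in lower tract. Its groups did not overlap and it rose by 0.87 (SE 0.102, adjusted p = 0.00127). ergic53, a cargo receptor of early secretory vesicles, rose by 0.84 (adjusted p = 0.00584; 0.49 and 0.0556 on its other probe set), CaBP1, a disulfide isomerase, by 0.58 (adjusted p = 0.0162) and KdelR, which returns chaperones to the reticulum, by 0.43 (adjusted p = 0.0286). KdelR lost its call without any 1 of 7 arrays (adjusted p 0.0557 to 0.0981) and kept it without wild-type spermathecae replicate 1, and CaBP1 lost it when either mutant spermathecae array (0.0569 and 0.0646), mutant lower tract replicate 1 (0.0542) or wild-type lower tract replicate 2 (0.0516) was dropped. With quantile normalization 7 of the 36 were called. The spermathecal proteases, secreted products of these glands, had no call among 10 tested and 0 at an unadjusted p below 0.05. Their median of 0.849 came with mean log2 levels of 12.89 and 12.59 in wild-type and 12.68 and 13.02 in mutant spermathecae, and of 7.85 and 5.16 against 8.94 and 7.07 in lower tract, where the arrays of a group lay far apart.

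Nuclear receptors and steroid genes held few calls, that of the mutated gene Hr39 among them, too few to give either list a direction. Of 16 tested nuclear receptor probe sets none rose and 2 fell (12.5%), that of Hr39 and that of Hr96, a receptor of sterol and xenobiotic metabolism, at 439 and 366 against 253 and 231 in spermathecae and 185 and 182 against 122 and 141 in lower tract. Hr96 fell by 0.60 on the log2 scale (adjusted p = 0.0255), and dropping either mutant spermathecae array (0.0724 and 0.091), mutant lower tract replicate 1 (0.0816), wild-type lower tract replicate 2 (0.0513) or wild-type spermathecae replicate 1 (0.0547) ended the call. Of 14 ecdysteroid and sterol probe sets 1 was called (7.14%, near the 5.94% over all tested). Cyp18a1, the hydroxylase that inactivates ecdysone, fell by 1.13 on the log2 scale (adjusted p = 0.0272), and its other probe set gave -0.12 (adjusted p = 0.825). The Cyp18a1 call ended when any mutant array was dropped (adjusted p = 0.065 and 0.0856 for lower tract, 0.0569 and 0.0763 for spermathecae), or wild-type lower tract replicate 2 (0.0813) or wild-type spermathecae replicate 1 (0.0711). None of 24 tested patterning factors of the tract was called (3 at an unadjusted p below 0.05).

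Among genes of other tissues, 3 of 39 muscle probe sets rose (7.69%, near the 5.94% over all tested). Mf, a protein of the thick filament, rose by 2.09 on probe set 1635372_a_at (adjusted p = 0.0018), while another Mf probe set gave -0.51 (adjusted p = 0.0921). Mlp60A, a muscle LIM protein, rose by 1.83 (adjusted p = 0.00513) on 1 dim probe set, while its other probe sets gave 1.15 (adjusted p = 0.0604) and, at signals of 1306 to 9042, -0.09 (adjusted p = 0.713). Msp300, a nuclear anchor protein, gave 0.93 (adjusted p = 0.0154) on 1 probe set and 0.02, 0.53, 0.08 and -1.05 on 4 others, none of them called. The Msp300 call was lost when mutant lower tract replicate 1 (0.0582) or either mutant spermathecae array (0.0524 and 0.0557) was dropped. The muscle marker Tm2 gave -0.06 (adjusted p = 0.792). Of 15 fat body genes (13.3% called) tobi and the lipase gene Lip4 (0.94, adjusted p = 0.0108) rose, Lip4 with no call when either mutant lower-tract array was dropped (0.0542 and 0.0514). Summed fat body markers were at 15934 and 16212 in mutant and 26265 and 25260 in wild-type lower tract, and at 24068 and 23444 against 32548 and 18348 in spermathecae. Their part in these results was not tested.

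The immune lists held 4 calls, 2 of 12 antimicrobial peptide genes (16.7%) and 2 of 23 recognition genes (8.70%). NimB2, a secreted protein of the nimrod family, fell in both organs, from 548 and 600 to 228 and 180 and from 811 and 748 to 433 and 382, by 1.21 on the log2 scale (adjusted p = 0.00154). PGRP-SB1, a peptidoglycan recognition protein, gave -1.08 (adjusted p = 0.0316), the other call among recognition genes. Among antimicrobial peptide genes AttD gave 1.75 (adjusted p = 0.0294) and Mtk -1.66 (adjusted p = 0.0478), and Mtk ranged from 952 to 3106 between the mutant spermathecae arrays. In lower tract AttD gave 2.62 and Mtk -2.37, both called. In spermathecae they gave 0.89 and -0.95, without a call and with the genotypes overlapping. The interaction was called for neither. AttD kept its call in 11 of 18 alternatives (adjusted p up to 0.0966), Mtk in 7 (up to 0.146) and PGRP-SB1 in 11 (up to 0.0989). Of 20 odorant-binding protein genes 1 rose and 2 fell over both organs, and the interaction was called for 9. The rise was that of Obp99b (3.16, adjusted p = 0.0199). Obp8a fell from 437 and 445 to 53.2 and 54.9 in spermathecae and from 192 and 234 to 37.5 and 47.4 in lower tract. Over both organs Obp8a fell by 2.58 on the log2 scale (adjusted p = 4.64e-05). Obp57c fell by 1.51 (adjusted p = 0.0124).

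Of 16 serpin probe sets, which inhibit serine proteases, none was called and 7 had an unadjusted p below 0.05, a level that 2162 (21.4%) of all tested probe sets reached. Of 46 cuticle protein probe sets 1 rose and 2 fell (6.52%, near the 5.94% over all tested). Cpr49Ah and Cpr56F were called in 9 and Cpr67B in 11 of 18 alternatives (adjusted p up to 0.113). Of 19 hemocyte probe sets 1 was called (5.26%, also near that share). It was that of Col4a1, a basement membrane collagen, at -0.65 (adjusted p = 0.0291). Of 9 neuronal probe sets 1 was called (11.1%), that of Ddc, the dopa decarboxylase. It read 311 and 291 against 178 and 199.9 in spermathecae and 437 and 486 against 314 and 293 in lower tract. Ddc fell by 0.63 on the log2 scale (adjusted p = 0.0108) without overlap. Col4a1 was called in 12 of 18 alternatives (adjusted p up to 0.0966).

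Lists of ribosomal, proton pump and mitochondrial genes held calls below the share of 5.94% over all tested probe sets, with 3.28% for oxidative phosphorylation. None of 42 tested ribosomal protein probe sets and none of 22 of the vacuolar proton pump was called by limma (4 and 1 at an unadjusted p below 0.05). Of 71 mitochondrial ribosomal protein probe sets 3 were called (4.23%), and with median centring 1. mRpS31 and mRpS28 kept their calls in 7 and 8 of 18 alternatives. mRpL39 stood at 144 and 215 against 83.1 and 55.8 in spermathecae and 282 and 210.5 against 82.0 and 65.6 in lower tract. mRpL39 was separated in both organs and fell by 1.50 on the log2 scale (adjusted p = 0.00263). Of 61 oxidative phosphorylation probe sets 2 were called, the complex I subunits ND-13B (0.86, adjusted p = 0.0018) and ND-SGDH (-0.43, adjusted p = 0.0289), the latter called in 9 of 18 alternatives (adjusted p up to 0.0987). Hsc70-2, of the Hsp70 family, was the 1 call among 10 heat shock probe sets and rose by 2.94 (adjusted p = 0.00346).

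Calls lay on every chromosome arm, by the order of genes in the annotation. Of the tested probe sets with an arm, 6.12% were called, and the shares were 4.26% on X, 7.31% on 2L, 5.84% on 2R, 7.09% on 3L, 5.83% on 3R and 9.84% (6 of 61) on chromosome 4. Chromosome 4 held 5 calls of at least 2-fold in both organs, 8.20% of its tested probe sets against 1.82% over all arms. They were Zip102B, 2 probe sets of the RING-finger gene Rnf11 (-3.68 and -2.06), CG31997 (1.54) and Gat (1.15), a GABA transporter. Rnf11 read 878 and 626 against 10.7 and 14.2 in spermathecae and 437 and 451 against 98.1 and 146 in lower tract.

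Hr39 lies on arm 2L, and a chromosome kept for its insertion also carries the neighbouring genes of its line of origin. Among the 25 nearest genes on either side 1 of 35 tested probe sets was called (2.86%), against 7.36% on the rest of the arm. That call was CG34136, the gene 24 places before Hr39, at 482 and 376 against 1293 and 2244 in spermathecae and 72.8 and 70.4 against 162 and 264 in lower tract. It rose in both organs, by 1.74 over both (SE 0.22, adjusted p = 0.0019). Within up to 100 genes on either side 8 of 111 probe sets were called (7.21%), against 7.26% on the rest of the arm. This window held 160 genes of the array, because the gene order of the arm ended sooner after Hr39. The shares by bins of 100 genes along the arm ran from 1.47% to 14.75%.

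**Figure D4:**
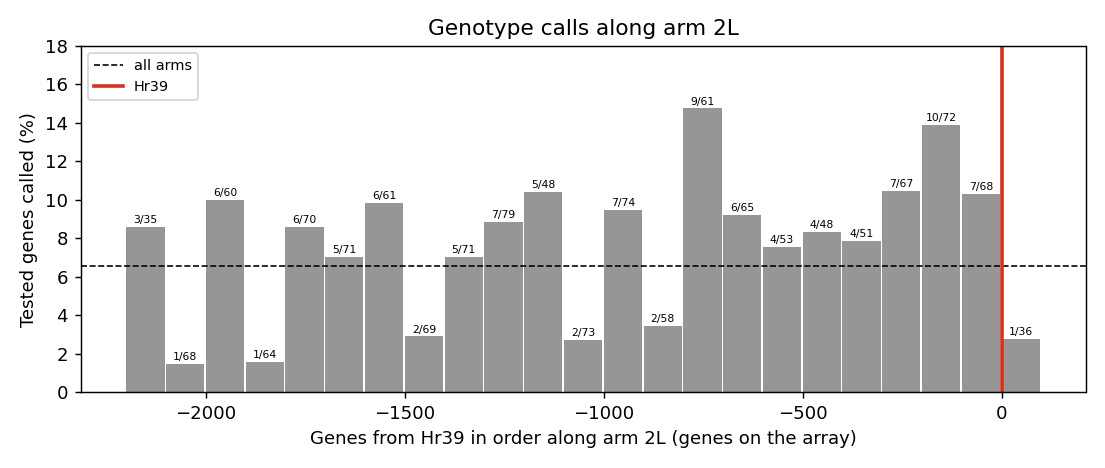
Share of tested genes called over both organs (vertical axis, percent) in bins of 100 genes of the array along chromosome arm 2L, placed by their order from Hr39 (red line), with called over tested genes above each bar and the dashed line for all arms. The bins run from 1.47% to 14.75%, and those beside Hr39 lie within that range. The bin after Hr39 is cut short by the end of the gene order and holds 36 tested genes.

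A single probe set stood for most called genes, and other probe sets of the same gene often did not follow. Of the 512 called genes 70 had at least 2 tested probe sets. In 7 of them at least 2 probe sets were called in the same direction, in 3 (Atat, CG42788 and CG43078) probe sets were called in opposite directions, and in 60 only 1 was called. Of the 88 other probe sets of those 60 genes 23 had the opposite sign. Among the genes with a difference of at least 2-fold in both organs 23 of 152 had several tested probe sets, and 4 of these had at least 2 called in the same direction. Atat, an alpha-tubulin acetyltransferase, gave 0.95 (adjusted p = 0.0047) on 1 probe set and -0.74 (adjusted p = 0.03) on another. Such a gene has no single direction in these data.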

How the data were processed

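The deposited intensity values are linear signals; per the submitters' processing notes the authors used MAS5, of unstated version. The mean after trimming 2% at each end was 150 on all 8 arrays. Of 18952 probe sets 183 controls were left out, and a probe set was tested when it reached the median of its array (17.7 to 22.5) on both arrays of at least 1 group. The platform annotation gave 13647 of the 18769 others a single symbol, and the release 6 annotation served only for names and gene order. Signals were fitted as log2(signal + 4) with limma 3.58.1 in R 4.3.3, lmFit and eBayes with a variance trend, with genotype and organ as terms (5 residual and 4.78 prior degrees of freedom). Organ-specific contrasts and the interaction came from a fit with 1 mean per group (4 and 5.75). Tests were two-sided with Benjamini-Hochberg adjustment over 10113 probe sets. On simulated data with 100 probe sets shifted by a log2 difference of 1 and 100 by 2, 64 and 91 were recovered with 11 false calls. Each shift was equal in both organs, no other probe set differed by genotype, and the noise was independent and normal. These counts therefore do not cover differences that depend on the organ. The number of arrays limits the precision.

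Genes named are the 12 largest rises and falls, by a single probe set, among calls with 1 symbol and no overlap in either organ, Hr39, ftz-f1, ry and cn always, the 5 smallest interaction p-values, and called list members; genes outside this rule were named after their values were seen. The comparison, its rules and the 30 gene lists were chosen with earlier results of these data known. Replicate numbers did not pair arrays (correlation of deviations -0.0323 to 0.026). Alternatives were quantile normalization, median centring, other pseudocounts, other filters, no variance trend, robust variance, averaged group means, a replicate block and leaving out each array.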

Additional observations from a re-analysis of the deposited data

Results flagged for a closer look

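A difference between the organs in the effect of genotype was called by the interaction for the following named probe sets, given as the log2 effect in spermathecae minus that in lower tract. Among genes also called over both organs it was 4.12 for CG18088, 1.74 for Kmn1, -2.35 for CG13794, -3.35 for Cyp4d21, -4.94 for NLaz, -3.66 for Rnf11, -1.64 for GstE1, 3.76 for Elovl7, 1.43 for Mf, -1.61 for Obp57c, 2.84 for alpha-Est5, -2.44 for Cyp6a14 and 1.94 for Cyp6w1. For NLaz, Rnf11, GstE1, Obp57c and Cyp6a14 the fall was larger in the spermathecae, and for Elovl7 in the lower tract. For CG18088, Kmn1, Mf, alpha-Est5 and Cyp6w1 the rise was larger in the spermathecae, and for CG13794 and Cyp4d21 in the lower tract.

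Among genes without an averaged call it was 2.80 for ry, 4.16 for Elal, -5.08 for GlcAT-P, 4.77 for Obp69a and -5.79 for the unnamed probe set 1635636_at, which read 53.7 and 44.1 in wild-type and 3839 and 4337 in mutant lower tract and 9.22 to 22.8 in spermathecae. Among genes called in each organ with opposite signs it was 2.85 for Hex-C, 2.56 for Npc2h, 1.71 for Lsd-1, 4.93 for CG13813 and -5.25 for CG13285.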

How the results depend on the processing

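Against the 601 calls, 485 to 649 calls were made under median centring, quantile normalization, other pseudocounts, other filters and a robust variance, and 416 without a variance trend; 381 of the 601 were still called in the last and 580 with quantile normalization. Averaging the group means of the organ-specific fit gave 1105 calls, 564 higher and 541 lower, which held all 601. The replicate block gave 524 calls, of which 506 were among the 601, and the numbers are not a pairing. Leaving out 1 array gave 311 to 515 calls in all, 155 to 276 higher and 153 to 239 lower, 313 to 1132 in spermathecae, 178 to 713 in lower tract and 116 to 440 for the interaction. Differences of at least 2-fold in both organs were recounted with arrays dropped only for wild-type spermathecae replicate 1 (172), wild-type lower tract replicate 1 (183) and both (161). Leaving out replicate 1 of both wild-type groups, chosen after seeing the data, gave 345 calls, 191 higher and 154 lower. A pseudocount of 20 took the count of at least 2-fold in both organs from 184 to 116, and the 40th percentile took the all-or-none count from 5 to 9. Of the 62 named probe sets with a call 39 kept it under every alternative run. Signs turned for Hr39 probe set 1628556_s_at with quantile normalization (0.0071), and leaving out 1 array gave it -0.17 to 0.069, ftz-f1 probe set 1640821_at -0.10 to 0.46 and Elal -0.047 to 0.89. Scalings moved the median of all probe sets by under 0.1. Signals near background limit the low genes.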
